A study of Homo sapiens with 4 samples.

Results

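The splicing factor families are the SR proteins (SRSF), the heterogeneous nuclear ribonucleoproteins (HNRNP), the small nuclear ribonucleoprotein polypeptides (SNRP), the subunits of splicing factor 3 (SF3), the pre-mRNA processing factors (PRPF) and the U2 auxiliary factor (U2AF). The members were chosen by gene symbol alone. The symbol began with the family name, followed by its number or letters, and 2 symbols that contain "A1P" were left out. This gave 76 of the 26364 listed genes, with 12 in SRSF, 27 in HNRNP, 13 in SNRP, 9 in SF3, 13 in PRPF and 2 in U2AF. A mean RPKM (reads per kilobase of gene, scaled to the depth of the library) of at least 1 was reached by 66 of the 76 members, against 11411 of all listed genes, and only these were tested.

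The RNA came from BE(2)C cells, an established human neuroblastoma line with amplified MYCN, labelled as wild type in genotype. Control cells (Ctrl, 2 samples) received a control siRNA and MYCN knockdown cells (MYCN KD, 2 samples) received siRNA against MYCN, with Lipofectamine 2000 in all samples. The labels give 80 nM siRNA for 6 h, with RNA extraction on the next day, while the study's methods give a lower final siRNA concentration, that of the dish after medium had been added to the transfection mix. All samples are thus of 1 cell line and 1 time point. The study's methods call its RNA-seq replicates biological, without saying how the cultures were separated, and the labels add nothing to this. The p-values set the difference between the groups against the spread between these samples. That spread is the one left after the study's normalization.

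The reads behind the RPKM values, which by the study's methods were normalized, came to between 29055819 and 34142988 per sample, computed from the whole-number steps of the values. MYCN itself was at 1068 and 1073 RPKM in the Ctrl samples, against 720.2 and 718.0 in the MYCN KD samples, a log2 fold change of -0.57 (SE 0.029, adjusted p = 0.00361, limma), so the transcript was lowered and not removed. After quantile normalization this log2 fold change was -0.38. The 5 neuroblastoma markers PHOX2A, HAND2, ISL1, GATA3 and DBH were present in every sample, with a summed RPKM from 944.9 to 1807, the higher values being those of MYCN KD. The summed RPKM of 8 markers of other cell types was 0.908 and 0.926 in Ctrl, against 2.26 and 2.19 in MYCN KD, most of it from COL1A1 and EPCAM, while PTPRC, CD3E, PECAM1, COL1A2, ALB and MYOD1 were at or near 0. The part of these markers in the results below was not tested.

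Splicing removes introns from pre-mRNA in the spliceosome, which is built from small nuclear RNAs and their proteins. A ring of Sm proteins sits on the U1, U2, U4 and U5 RNAs, U2AF marks the end of the intron, the SF3A and SF3B complexes hold the U2 particle on the branch site, and PRPF proteins act in the U4/U6.U5 particle and in the activation of the complex. SR proteins and hnRNPs bind the pre-mRNA and steer the choice of splice sites. MYC family proteins are known to bind DNA with MAX at the E-box CACGTG and to act on genes of growth and RNA processing.

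Since MYCN recognises this sequence, the promoters of the members were searched for it. RefSeq promoters (GRCh38.p14, 250 bases before to 50 bases after the annotated start) were found by symbol for 58 of the 66 tested members. CACGTG, which reads the same on both strands, was the only motif searched. It was in the promoter of 7 of the 58 members (12.1%), against 13.2% of the promoters of all tested genes and 8.77% of all 27305 genes with a promoter entry. Of these 7 members 6 were HNRNP genes, out of 19 with an entry, and the other was SF3B1. No match was found in the windows of the SRSF, SNRP, PRPF and U2AF members. The motif was present in 5 of 33 members that were lower in MYCN KD at the threshold and in 2 of 25 that did not pass. The motif began 71 bases before the start in HNRNPA3, 27 in HNRNPD, 42 in HNRNPM, 50 in HNRNPH3, 156 and 127 in HNRNPDL, and in HNRNPUL1 24 bases after it. In SF3B1 it began 108 bases before the first of its listed starts and 43 before the other. The 120 bases before the start are shown for the members with a match within them, with the motif in capitals, and for the members with the largest fall in the SNRP and HNRNP families, whose promoters held no match:
HNRNPA3 (chr2:177212674-177212793, plus strand): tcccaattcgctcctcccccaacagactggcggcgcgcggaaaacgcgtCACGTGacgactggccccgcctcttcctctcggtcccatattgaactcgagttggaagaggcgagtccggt
HNRNPD (chr4:82373992-82374111, minus strand): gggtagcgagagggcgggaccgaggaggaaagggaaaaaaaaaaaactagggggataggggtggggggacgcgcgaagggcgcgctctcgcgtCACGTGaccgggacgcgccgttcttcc
HNRNPM (chr19:8444855-8444974, plus strand): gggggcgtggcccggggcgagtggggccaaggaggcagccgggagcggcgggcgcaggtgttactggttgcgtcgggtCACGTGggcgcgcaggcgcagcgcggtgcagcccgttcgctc
HNRNPH3 (chr10:68331573-68331692, plus strand): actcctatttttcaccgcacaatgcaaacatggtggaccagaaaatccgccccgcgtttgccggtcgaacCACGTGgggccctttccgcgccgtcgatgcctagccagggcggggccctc
SF3B1 (chr2:197435029-197435148, minus strand): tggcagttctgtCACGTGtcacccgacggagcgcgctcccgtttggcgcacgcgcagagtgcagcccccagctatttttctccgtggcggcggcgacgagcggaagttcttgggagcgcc
SNRPF (chr12:95858832-95858951, plus strand): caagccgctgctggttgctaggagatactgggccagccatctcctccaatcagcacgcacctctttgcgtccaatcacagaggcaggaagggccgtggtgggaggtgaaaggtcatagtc
HNRNPAB (chr5:178204413-178204532, plus strand): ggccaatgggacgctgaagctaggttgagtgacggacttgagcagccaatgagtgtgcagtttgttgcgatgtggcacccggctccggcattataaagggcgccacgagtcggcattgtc
A match describes the letters of the window and was not tested as a binding site.

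Most of the splicing factor genes that were measured well enough to test had lower levels after MYCN knockdown. None passed as higher in the main fit, while HNRNPUL1 passed as higher under both other scalings. HNRNPLL had a log2 fold change of 0.37 without replicate 2 of Ctrl and also without replicate 2 of MYCN KD. At a threshold of 0.05 on the adjusted p (limma, Benjamini-Hochberg), 38 of the 66 tested members (57.6%) were lower after knockdown, 0 were higher and 28 did not pass. Over all 11411 tested genes, 22.8% were lower and 25.3% were higher by the same rule. Where genes are counted below as having fallen or risen, they passed this threshold. The median log2 fold change, on the log2(RPKM + 1) scale and as MYCN KD minus Ctrl throughout, was -0.31 over the members and 0.026 over all tested genes, and 60 of the 66 members had a value below 0. Both MYCN KD values lay below both Ctrl values in 53 members and above them in 3, and the groups overlapped in 10. Among all tested genes the corresponding shares were 35.8% below and 40.4% above. At an unadjusted p under 0.05, limma gave 41 lower and 0 higher members, and the same count over all tested genes is not given here. At the adjusted threshold, limma voom on the recovered reads gave 38 lower and 0 higher members, beside 2585 lower and 2909 higher of all 11411 tested genes. With 2 samples against 2, an exact permutation test cannot go below p = 0.33 for a single gene, so the calls rest on the spread that limma shares across genes.

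Lower members were then counted by family. They were 10 of 11 in SNRP, 2 of 2 in U2AF, 6 of 11 in SRSF, 11 of 20 in HNRNP, 4 of 9 in SF3 and 5 of 13 in PRPF. The median log2 fold change was -0.39 in SNRP, -0.48 in U2AF, -0.34 in SRSF, -0.29 in HNRNP, -0.20 in SF3 and -0.11 in PRPF. Whether the families differ from each other was not tested. The summed RPKM of all members was 7497 and 7491 in Ctrl, against 5940 and 5945 in MYCN KD, so that the mean fell by 20.7%, while the sum over all listed genes fell by 4.14%. By family, the mean of the summed RPKM fell by 25.3% in SNRP, fell by 27.0% in U2AF and fell by 20.9% in HNRNP. It fell by 19.3% in SRSF, fell by 16.3% in PRPF and fell by 12.4% in SF3. In all 6 families both sums of MYCN KD lay below both sums of Ctrl. In bulk RNA, less RNA per cell and fewer cells that express a gene cannot be told apart.

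**Figure D1:**
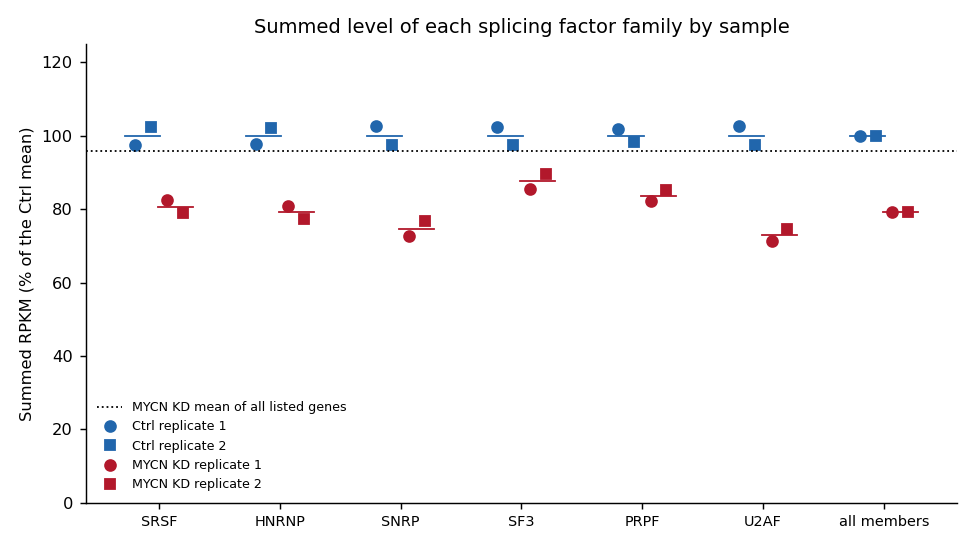
Summed RPKM of each family in each sample, as a percentage of the mean of the 2 Ctrl samples (points: samples; short lines: group means; dotted line: the MYCN KD mean of the sum over all listed genes). All MYCN KD points lie below all Ctrl points of their family and below the dotted line.

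Of the 11 tested SNRP members 10 passed as lower, and all 11 had a log2 fold change below 0. The Sm ring genes, which encode the 7 proteins that are laid around most small nuclear RNAs of the spliceosome during assembly of the particles, all fell (7 of 7). SNRPF, on chromosome 12 from 96252730 to 96297606 (GRCh37, plus strand, 4 exons in the canonical transcript), was at 196.0 and 194.8 RPKM in Ctrl, against 115.0 and 115.9 in MYCN KD. Both MYCN KD samples were low and the replicates nearly identical, with a log2 fold change of -0.75 (SE 0.030, adjusted p = 0.00359, limma). SNRPD1 was at 56.5 and 56.7 RPKM in Ctrl, against 39.3 and 39.2 in MYCN KD (log2 fold change -0.52, adjusted p = 0.00422). SNRPB, the source of the SmB and SmB′ proteins, was at 289.2 and 269.0 RPKM in Ctrl, against 192.7 and 206.9 in MYCN KD (log2 fold change -0.48, adjusted p = 0.0117). The wider spread between replicates of SNRPB left the groups well apart. SNRPE, SNRPD3 and SNRPG fell by 0.39, 0.38 and 0.37 on the log2 scale. SNRPD2, the most abundant member per length of all families, was at 604.0 and 555.5 RPKM in Ctrl, against 446.9 and 485.2 in MYCN KD (log2 fold change -0.31, adjusted p = 0.0353). Its call was lost without Ctrl replicate 1 (adjusted p = 0.0524) or without MYCN KD replicate 1 (adjusted p = 0.0557).

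Of the SNRP proteins specific to the U1 and U2 particles, 3 of 4 passed as lower, and all 4 had a log2 fold change below 0. SNRPA1, the U2 A′ protein, was at 64.1 and 66.7 RPKM in Ctrl, against 42.5 and 41.0 in MYCN KD (log2 fold change -0.64, SE 0.043, adjusted p = 0.00444). SNRPB2, the U2 B″ protein that partners it, was at 56.8 and 57.0 RPKM in Ctrl, against 45.0 and 44.9 in MYCN KD (log2 fold change -0.33, adjusted p = 0.00682). SNRPC, a protein of U1, was at 165.4 and 156.4 RPKM in Ctrl, against 118.8 and 125.6 in MYCN KD (log2 fold change -0.39, adjusted p = 0.0121). In all of them the MYCN KD samples lay below the Ctrl samples by more than the gap between replicates. SNRPA, the U1 A protein, was at 133.0 and 114.8 RPKM in Ctrl, against 91.9 and 106.1 in MYCN KD, with a log2 fold change of -0.32 (95% interval -0.66 to 0.018, adjusted p = 0.0972). The groups of SNRPA did not overlap but its replicates differed most within the family. Its log2 fold change was -0.43 without Ctrl replicate 2 and -0.42 without MYCN KD replicate 2. These fits are nearly the same, since the replicate gaps of the groups mirror each other, and are not separate checks. SNRPN, the neuronal relative of SNRPB, was listed at 0 in every sample. It shares 43.9% of its exon bases with genes on its own strand, among them SNURF, so no statement on its expression can be drawn from this value.

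**Figure D2:**
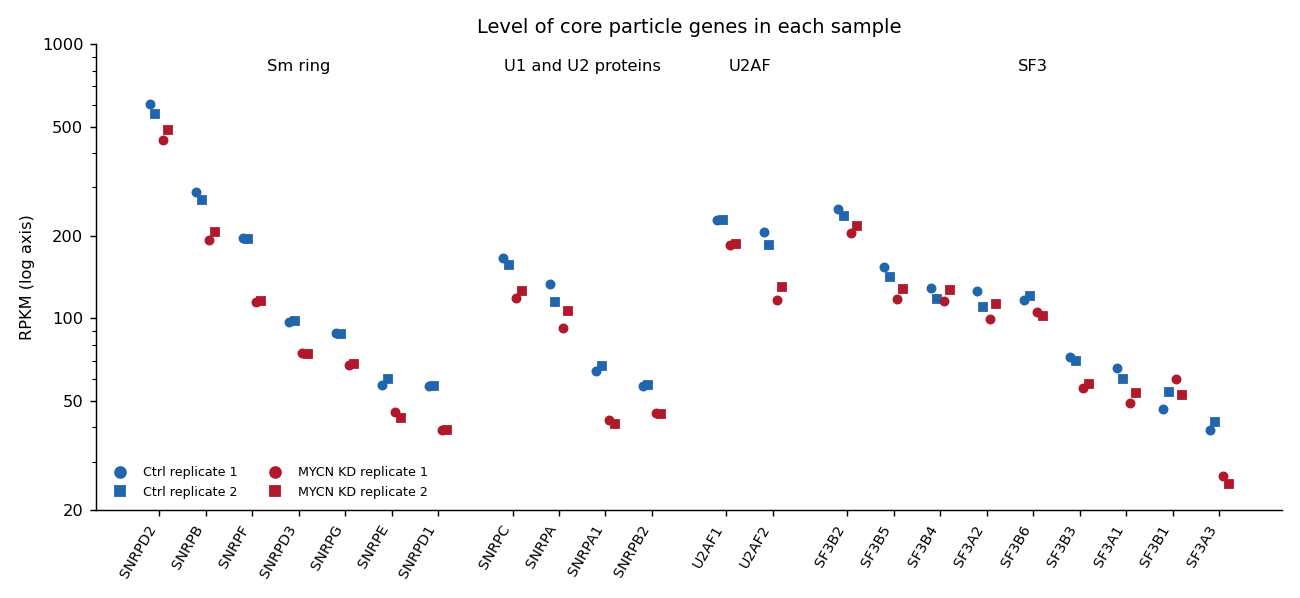
RPKM (log axis) of the Sm ring, the U1 and U2 proteins, U2AF and the SF3 subunits in each of the 4 samples (blue: Ctrl; red: MYCN KD; circles: replicate 1; squares: replicate 2). The red points of the 7 Sm ring genes lie below the blue ones, while those of SF3B1, SF3B4 and SF3A2 overlap with them.

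Both subunits of U2AF, the dimer that binds the polypyrimidine tract and the end of the intron, fell. U2AF2, the large subunit (chromosome 19 from 56165512 to 56186082, GRCh37, plus strand, 12 exons), was at 205.5 and 184.2 RPKM in Ctrl, against 116.6 and 129.9 in MYCN KD. This gave a log2 fold change of -0.66 (SE 0.088, adjusted p = 0.0126). U2AF1, the small subunit, was at 229.1 and 228.5 RPKM in Ctrl, against 185.7 and 186.4 in MYCN KD, with a log2 fold change of -0.30 (SE 0.029, adjusted p = 0.00724). The ratio of U2AF2 to U2AF1 within a sample, both as RPKM, was 0.897 and 0.806 in Ctrl, against 0.628 and 0.697 in MYCN KD. The groups did not overlap, so the subunits did not fall in proportion in these samples. This ratio and the others below belong to 12 pairs that were chosen with the levels known, and are given as a description.

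In SF3, 4 of the 9 subunits passed as lower and no others passed, while 8 had a log2 fold change below 0. SF3A3, a subunit of SF3A (chromosome 1 from 38422647 to 38455747, GRCh37, minus strand, 17 exons), was at 39.0 and 41.7 RPKM in Ctrl, against 26.5 and 24.9 in MYCN KD, with an estimated log2 fold change of -0.63 (SE 0.059, adjusted p = 0.00682). SF3B3 was at 71.9 and 69.8 RPKM in Ctrl, against 55.8 and 57.5 in MYCN KD (log2 fold change -0.32, adjusted p = 0.0102). The falls of SF3B2 and SF3B6 were smaller, at -0.20 each (adjusted p = 0.0447 and 0.0287). SF3B2 and SF3B6 lost their call whenever any 1 of the 4 samples was left out, with adjusted p-values from 0.0682 to 0.250 for SF3B2 and from 0.107 to 0.239 for SF3B6. SF3A1 and SF3B5 lay at the threshold, with log2 fold changes of -0.29 and -0.26 (adjusted p = 0.0502 and 0.0540), and passed without Ctrl replicate 2 (0.0104 and 0.0132) and without MYCN KD replicate 2 (0.0145 and 0.0165).

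SF3B1, the subunit that contacts the branch site and is often mutated in blood cancers, did not fall. It was at 46.6 and 53.8 RPKM in Ctrl, against 60.1 and 52.3 in MYCN KD. The groups overlapped, and the log2 fold change was 0.16 (95% interval -0.17 to 0.49, adjusted p = 0.303). SF3B4 was at 129.4 and 117.4 RPKM in Ctrl, against 115.4 and 126.8 in MYCN KD (95% interval of the log2 fold change -0.26 to 0.21, adjusted p = 0.799), and SF3A2 overlapped as well (adjusted p = 0.289). Within a sample, the ratio of SF3B1 to SF3A3 was 1.19 and 1.29 in Ctrl, against 2.27 and 2.1 in MYCN KD. The groups did not overlap in this ratio, which sets a gene of one subcomplex against a gene of the other.

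Among the PRPF genes 5 of 13 passed as lower, and 12 had a log2 fold change below 0. PRPF19, the ubiquitin ligase at the heart of the PRPF19 complex that activates the spliceosome (chromosome 11 from 60658019 to 60674057, GRCh37, minus strand, 16 exons), was at 82.4 and 75.7 RPKM in Ctrl, against 48.3 and 52.5 in MYCN KD, with an estimated log2 fold change of -0.64 (SE 0.071, adjusted p = 0.00880). PRPF38B was at 17.6 and 20.1 RPKM in Ctrl, against 13.8 and 12.1 in MYCN KD (log2 fold change -0.51, adjusted p = 0.0271). PRPF31, PRPF4 and PRPF3, proteins of the U4/U6 particle, fell by 0.38, 0.37 and 0.26 on the log2 scale (adjusted p = 0.0215, 0.00777 and 0.0208). The call of PRPF3 was lost without Ctrl replicate 2 (adjusted p = 0.113) and without MYCN KD replicate 2 (adjusted p = 0.126), and PRPF31 shares 31.3% of its exon bases with genes on the other strand.

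The U5 proteins of the family did not pass. PRPF8, which forms the centre of the catalytic core, was at 101.9 and 93.5 RPKM in Ctrl, against 85.7 and 93.2 in MYCN KD (log2 fold change -0.13, 95% interval -0.34 to 0.084, adjusted p = 0.223). PRPF6 had the highest mean RPKM of the family, with 98.4 and 91.1 RPKM in Ctrl, against 90.4 and 97.5 in MYCN KD (95% interval -0.21 to 0.18, adjusted p = 0.892). The ratio of PRPF19 to PRPF8 was 0.808 and 0.809 in Ctrl and 0.563 in both MYCN KD samples. Replicates differed in the levels of both genes but hardly in this ratio. PRPF18, PRPF38A, PRPF39, PRPF40B and PRPF4B had log2 fold changes from -0.11 to 0.18 and none passed. The kinase gene PRPF4B, at 6.88 and 7.47 RPKM in Ctrl, against 7.30 and 6.75 in MYCN KD, was among those that overlapped.

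Of the SR proteins 6 of 11 passed as lower, and 10 had a log2 fold change below 0. SRSF2 (SC35), which binds exonic enhancers and lies on chromosome 17 from 74730197 to 74733415 (GRCh37, minus strand, 3 exons), was at 160.8 and 158.3 RPKM in Ctrl, against 112.1 and 114.0 in MYCN KD. This gave a log2 fold change of -0.49 (SE 0.032, adjusted p = 0.00436). SRSF7 was at 74.9 and 79.4 RPKM in Ctrl, against 59.1 and 55.9 in MYCN KD (log2 fold change -0.42, adjusted p = 0.0113). SRSF3, the smallest SR protein, was at 100.2 and 110.2 RPKM in Ctrl, against 82.6 and 75.5 in MYCN KD (log2 fold change -0.41, adjusted p = 0.0248). SRSF6 was at 62.8 and 67.8 RPKM in Ctrl, against 51.1 and 47.5 in MYCN KD (log2 fold change -0.40, adjusted p = 0.0181). SRSF1 (ASF/SF2), the founding member and a known oncoprotein, was at 67.9 and 74.7 RPKM in Ctrl, against 57.9 and 52.9 in MYCN KD (log2 fold change -0.36, adjusted p = 0.0325). All these groups were separate, with Ctrl replicate 2 the highest sample for each except SRSF2. SRSF11 fell by 0.34 on the log2 scale (adjusted p = 0.0476), a call lost without Ctrl replicate 2 (adjusted p = 0.0853) or MYCN KD replicate 2 (adjusted p = 0.0934). Once all samples were brought to equal total RPKM, SRSF1, SRSF3 and SRSF11 had adjusted p-values of 0.0730, 0.0530 and 0.102, which leaves 3 lower SRSF members.

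SRSF4, SRSF5, SRSF8, SRSF9 and SRSF12 did not pass. SRSF9 had the highest mean RPKM of the family, at 140.4 and 144.6 RPKM in Ctrl, against 135.7 and 132.0 in MYCN KD, with a log2 fold change of -0.09 (95% interval -0.20 to 0.019, adjusted p = 0.128). SRSF4 was at 32.5 and 32.6 RPKM in Ctrl and 31.7 in both MYCN KD samples (95% interval -0.13 to 0.061, adjusted p = 0.418). The ratio of SRSF2 to SRSF9 was 1.15 and 1.09 in Ctrl, against 0.826 and 0.863 in MYCN KD. SRSF2 was thus above SRSF9 per length in Ctrl and below it in MYCN KD. The exons of SRSF2 and SRSF9 overlap those of neighbouring genes over 27.7% and 46.7% of their bases, mostly on the other strand.

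The hnRNP family, which coats nascent transcripts, had 11 lower members of 20. HNRNPAB, which has the highest mean RPKM of the family (chromosome 5 from 177631534 to 177638164, GRCh37, plus strand, 8 exons), was at 402.8 and 383.2 RPKM in Ctrl, against 217.3 and 228.4 in MYCN KD. Its log2 fold change of -0.82 (SE 0.048, adjusted p = 0.00413) was the lowest of the 66 members. HNRNPA3 was at 44.4 and 47.6 RPKM in Ctrl, against 30.6 and 28.6 in MYCN KD (log2 fold change -0.62, adjusted p = 0.00741). HNRNPD (AUF1), which also binds AU-rich elements of mRNA, was at 315.2 and 320.5 RPKM in Ctrl, against 231.1 and 227.7 in MYCN KD (log2 fold change -0.47, adjusted p = 0.00441). HNRNPC, which binds uridine tracts, was at 274.4 and 306.0 RPKM in Ctrl, against 224.0 and 201.9 in MYCN KD (log2 fold change -0.44, adjusted p = 0.0268). In all of these the MYCN KD samples were lower than both Ctrl samples. HNRNPM, HNRNPA1, HNRNPF, HNRNPDL, HNRNPH3 and HNRNPL fell by 0.41, 0.40, 0.39, 0.38, 0.37 and 0.30 on the log2 scale. HNRNPA0 had the smallest fall that passed, at -0.18 (adjusted p = 0.0227), and did not pass once any 1 sample was left out (adjusted p from 0.188 to 0.262). HNRNPC, HNRNPDL, HNRNPH3 and HNRNPA0 did not pass at equal total RPKM of all samples (adjusted p = 0.0541, 0.0848, 0.0655 and 0.0824), which leaves 7 lower HNRNP members.

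Some of the best known hnRNPs did not pass. HNRNPA2B1 was at 286.6 and 318.4 RPKM in Ctrl, against 280.2 and 253.4 in MYCN KD, with a log2 fold change of -0.18 (95% interval -0.43 to 0.068, adjusted p = 0.163). HNRNPK, which binds cytidine-rich RNA, changed by -0.21 on the log2 scale (95% interval -0.44 to 0.017, adjusted p = 0.102), and HNRNPU, which also has a role in chromatin structure, by -0.17 (95% interval -0.44 to 0.092, adjusted p = 0.197). In HNRNPA2B1, HNRNPK and HNRNPU the MYCN KD samples lay below the Ctrl samples without overlap, but Ctrl replicate 2 stood above Ctrl replicate 1 by a gap close to that between the groups. HNRNPK, HNRNPR and HNRNPH1 passed without Ctrl replicate 1 (adjusted p = 0.0306, 0.0167 and 0.0160) and without MYCN KD replicate 1 (adjusted p = 0.0376, 0.0227 and 0.0211).

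Only 3 tested HNRNP members had a log2 fold change above 0, namely HNRNPUL2 (0.068), HNRNPUL1 (0.074) and HNRNPLL (0.28). HNRNPUL1 was at 203.6 and 197.0 RPKM in Ctrl, against 207.6 and 214.4 in MYCN KD (adjusted p = 0.192), and passed as higher once all samples were brought to equal total RPKM (adjusted p = 0.0265) and after quantile normalization (adjusted p = 0.0126). HNRNPLL, known for its part in CD45 splicing in lymphocytes, was at 11.9 and 13.7 RPKM in Ctrl, against 16.8 and 14.6 in MYCN KD (95% interval -0.037 to 0.59, adjusted p = 0.112). It passed as higher without Ctrl replicate 2 (adjusted p = 0.0192) and without MYCN KD replicate 2 (adjusted p = 0.0285). The ratio of its paralog HNRNPL to HNRNPLL was 26.3 and 21.8 in Ctrl, against 14.4 and 17.4 in MYCN KD, with no overlap. The ratio of HNRNPAB to HNRNPA2B1 was 1.41 and 1.2 in Ctrl, against 0.775 and 0.902 in MYCN KD, so that HNRNPAB was the higher of the pair per length in Ctrl and the lower in MYCN KD.

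The replicates of a group differed along 1 axis in these genes. In all 66 tested members, the gap from replicate 1 to replicate 2 had one sign in Ctrl and the opposite sign in MYCN KD, as it had in 11337 of all 11411 tested genes. Ctrl replicate 2 was the higher Ctrl sample in 10 of 11 SRSF and 17 of 20 HNRNP members, in 8 of 13 PRPF and 5 of 11 SNRP members, in 3 of 9 SF3 members and in 0 of 2 U2AF members. The families therefore did not vary together between replicates, while their group medians were all below 0. The median size of the gap was 0.10 in Ctrl and 0.10 in MYCN KD on the log2(RPKM + 1) scale over the members, and 0.11 in both groups over all tested genes. The widest gap was that of PRPF39, at 0.31 in Ctrl and -0.30 in MYCN KD.

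**Figure D3:**
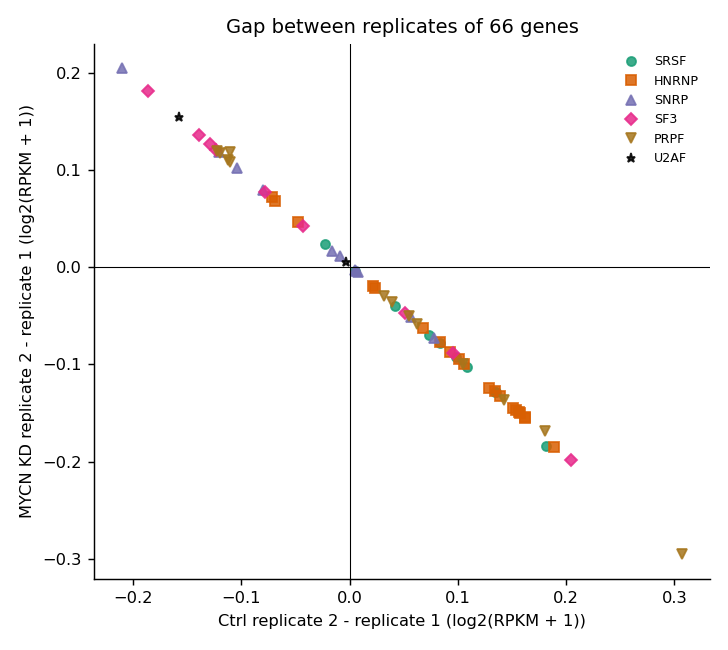
Difference between replicate 2 and replicate 1 in Ctrl (horizontal) and in MYCN KD (vertical), both in log2(RPKM + 1), for the 66 tested members by family. All points lie in the upper left and lower right of the plot, since a gap in Ctrl came with one of the opposite sign in MYCN KD.

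The 10 members under the filter were HNRNPCL1, HNRNPCL3, HNRNPCL4, SNRPD2P2 and SNRPN, listed at 0 in all samples, and HNRNPCL2, HNRNPA3P1, HNRNPKP3, HNRNPH2 and SRSF10. SRSF10, a splicing repressor when dephosphorylated, was at 0.191 and 0.249 RPKM in Ctrl, against 0.230 and 0.177 in MYCN KD. These values rest on 107, 131, 110 and 90 reads over a length of 16433 bases, close to the whole span of the gene and far above the length behind other SR genes, so its level is not comparable with theirs. HNRNPH2 had 15 and 9 reads in Ctrl and 19 and 31 reads in MYCN KD and shares exon bases with RPL36A-HNRNPH2. Some tested members are uncertain for a like reason. HNRNPA1, with 74 annotated pseudogenes, rested on 811 and 799 reads in Ctrl and 535 and 543 reads in MYCN KD, and SNRPG, SNRPC, HNRNPA3 and SNRPE have between 10 and 20 pseudogenes each. HNRNPA1L2 lies fully within another gene on its strand, HNRNPUL2 and SRSF1 share 44.3% and 32.7% of their exon bases with genes on their own strand, and HNRNPA3 shares most of its overlap of 54.8% with genes on the other strand, among them NFE2L2. Whether the counting used strand is not given in the sources used here.

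The other splicing genes were described by 13 lists. Leaving out members, 54 of the 135 tested list genes (40.0%) were lower and 16 were higher, with a median log2 fold change of -0.15. Over all tested genes 22.8% were lower and 25.3% were higher, and the counts of each list below are to be read beside these shares. The lists include the complexes that assemble the Sm ring. In the methylosome, which methylates Sm proteins and hands them on, 4 of 4 genes fell (median -0.73). WDR77 was at 83.5 and 81.0 RPKM in Ctrl, against 45.4 and 46.8 in MYCN KD (log2 fold change -0.82, adjusted p = 0.00359), and CLNS1A (pICln) and COPRS had log2 fold changes of -0.79 and -0.51. In the SMN complex, which loads the ring onto the small nuclear RNA, 6 of 8 tested genes fell and 0 rose (median -0.35). Over the alternatives other than a crossed block, 4 to 6 of them were lower. In a limma fit that also took the replicate number into account, GEMIN2 and GEMIN7 did not pass (adjusted p = 0.153 and 0.136). GEMIN5, the subunit that reads the small nuclear RNA, was at 16.7 and 17.5 RPKM in Ctrl, against 6.97 and 6.71 in MYCN KD (log2 fold change -1.21, SE 0.046, adjusted p = 0.00359), below every member of the 6 families in log2 fold change. GEMIN4 was at 14.2 and 13.1 RPKM in Ctrl, against 6.05 and 6.58 in MYCN KD (log2 fold change -1.0, adjusted p = 0.00463), and GEMIN7 had the smallest fall that passed (-0.29). SMN1 and SMN2, nearly identical copies, were listed at 0 in all samples, so their level is not known from these values.

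In the lists of particle proteins most of the calls were falls as well. The share of lower genes was close to the 22.8% of all tested genes in the minor spliceosome (28.6%). It was 33.3% in both the LSM genes and the other SR-rich factors. Among the other U4/U6.U5 proteins 7 of 9 fell, led by NHP2L1 (log2 fold change -0.73) and PPIH (-0.57), with DDX23 (-0.17) the smallest. Among genes named SNRNP 3 of 7 fell, with SNRNP40 (-0.63) and SNRNP70 (-0.36) the lowest, and SNRNP35, a protein of the minor U11 particle, rose by 0.22. The genes named LSM, of which many but not all encode proteins of rings related to the Sm ring, fell in 4 of 12. They were LSM6 (-0.58), LSM7 (-0.42), LSM14A (-0.34) and LSM10 (-0.24). LSM14A, named after its values were seen, did not pass without MYCN KD replicate 2 (adjusted p = 0.0524), which left 2 lower LSM genes. In the exon junction complex 5 of 7 fell, led by EIF4A3 (-0.49) and MAGOH (-0.48), with RBM8A (-0.29) the smallest. The PRPF19 complex and related factors had 6 of 14 lower (RBM22 -0.54, SYF2 -0.27, ISY1 -0.19), and the spliceosomal helicases had 5 of 11 (DDX46 -0.53, DDX39A -0.52, DDX42 -0.17). No gene of these last 3 lists rose. The other U2 and branch-site factors, a list that includes SF3B6, had 5 of 11 lower (CHERP and PHF5A both -0.49) and RBM5 higher (0.29). The other SR-rich factors had 5 of 15 lower (PNN -0.42, SRRM1 -0.37) and 2 higher, and the minor spliceosome had 2 of 7 lower (PDCD7 -0.63, ZCRB1 -0.29) and RNPC3 higher (0.29). Among these lists the calls of small changes needed all 4 samples, while the estimates could stay the same. For SNRNP35 the log2 fold change was 0.22 with any 1 sample left out. LSM10, SNRNP35, DDX23, SYF2, ISY1, DDX42, ZCRB1 and RNPC3 did not pass once any 1 of the 4 was left out (adjusted p from 0.0522 for ZCRB1 to 0.413 for ISY1). RBM5 passed only without Ctrl replicate 2 (adjusted p = 0.0396), as did GEMIN7 (0.0448), and RBM8A did not pass without Ctrl replicate 2 (0.133) or MYCN KD replicate 2 (0.146). Over the alternatives the count of lower genes ran from 1 to 6 for the PRPF19 complex and related factors, from 2 to 5 for the LSM genes, from 3 to 5 for the helicases, from 3 to 6 for the other U2 and branch-site factors, from 3 to 7 for the other SR-rich factors and from 1 to 2 for the minor spliceosome, while all 4 methylosome genes were lower in each alternative. These ranges leave out the crossed block.

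**Figure D4:**
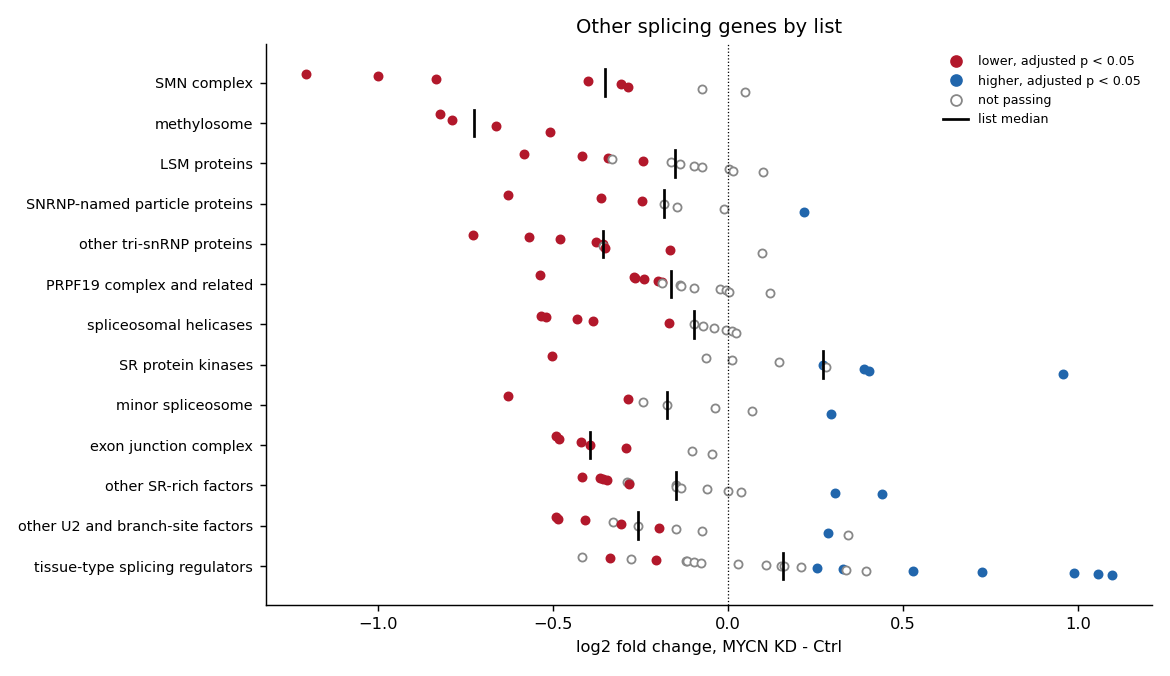
Log2 fold change (MYCN KD minus Ctrl) of each tested gene in 13 further lists of splicing genes, with the median of each list as a vertical line (red: lower; blue: higher; open grey: not past an adjusted p of 0.05). The medians lie below 0 in all lists other than the SR protein kinases and the tissue-type splicing regulators.

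A pair of lists had medians above 0. The SR protein kinases, which phosphorylate the RS domain of SR proteins, had 4 higher genes and 1 lower gene of 9 (median 0.27). SRPK1 was at 27.7 and 32.4 RPKM in Ctrl, against 22.5 and 19.3 in MYCN KD (log2 fold change -0.50, adjusted p = 0.0402), while DYRK1B rose from 5.87 and 4.95 RPKM to 10.5 and 12.4 RPKM (log2 fold change 0.96, adjusted p = 0.0109). SRPK3, at about 1 RPKM, rose by 0.27, and CLK1 and DYRK1A, named after their values were seen, rose by 0.40 and 0.39. SRPK1 did not pass at equal total RPKM of all samples (adjusted p = 0.0713) or with no filter (0.0637). SRPK3 did not pass without Ctrl replicate 1 (0.0549), Ctrl replicate 2 (0.112) or MYCN KD replicate 2 (0.0891), nor CLK1 without MYCN KD replicate 1 (0.0546), and the count of higher kinases ran from 1 to 5 over the alternatives. The ratio of SRPK1 to SRPK2 was 2.54 and 2.63 in Ctrl, against 1.48 and 1.44 in MYCN KD.

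The tissue-type splicing regulators had 7 higher and 2 lower genes of 22 (median 0.16), beside 25.3% higher and 22.8% lower of all tested genes. The higher count is near that background and ran from 4 at a minimum mean RPKM of 5 to 9 over the alternatives, and the lower count from 1 to 3. The genes that rose were ELAVL4, CELF6, CELF3, NOVA2, ELAVL3, KHDRBS3 and NOVA1, of which all but ELAVL4 were named after their values were seen. Another 13 tested genes of the list did not pass, and 8 were under the filter. Whether regulators known from neurons changed as a set was not tested. ELAVL4 (HuD) was at 12.4 and 14.8 RPKM in Ctrl, against 32.8 and 27.7 in MYCN KD (log2 fold change 1.10, SE 0.13, adjusted p = 0.00998). CELF3 was at 8.19 and 7.96 RPKM in Ctrl, against 16.8 and 17.2 in MYCN KD (log2 fold change 0.99, adjusted p = 0.00359). The rise of CELF6 (log2 fold change 1.06) is uncertain, since 93.3% of its exon bases lie in other genes on its strand. SRRM4, the SR-rich activator of neuronal microexons, was at 4.16 and 4.12 RPKM in Ctrl, against 5.95 and 6.00 in MYCN KD (log2 fold change 0.44, adjusted p = 0.00626). PTBP1, the repressor of neuronal exons, was at 346.5 and 319.5 RPKM in Ctrl, against 252.6 and 273.5 in MYCN KD (log2 fold change -0.34, adjusted p = 0.0284), and ELAVL1 (HuR) fell by 0.21 on the log2 scale (adjusted p = 0.0389). NOVA1 and ELAVL1 did not pass once any 1 sample was left out (adjusted p from 0.0944 to 0.282), and KHDRBS3 did not pass without Ctrl replicate 1 (0.0902) or MYCN KD replicate 1 (0.108). PTBP2, the neuronal paralog of PTBP1, was at 2.88 and 3.35 RPKM in Ctrl, against 3.83 and 3.32 in MYCN KD (log2 fold change 0.15, adjusted p = 0.258). The ratio of PTBP1 to PTBP2 was 120.1 and 95.4 in Ctrl, against 66.0 and 82.5 in MYCN KD. Splicing itself was not measured by these gene-level values.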

How the data were processed

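Total RNA from 4 samples of BE(2)C cells was sequenced (2 Ctrl, 2 MYCN KD). Per the labels and the study's methods, the authors aligned the reads with HISAT2 2.1.0 (build hg19), counted them on RefSeq genes with featureCounts, modelled the counts with DESeq2, applied RUVSeq against unwanted variation and deposited the RPKM values made from the normalized counts. The variant of RUVSeq and its number of factors are not given in the sources used here. That step had adjusted the spread between samples before deposit, so the error seen here is that of adjusted values. The files of each sample list the same 26364 genes, and no columns of the authors' own comparisons were used.

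Each RPKM value was read as a whole number of steps of 1 read. Totals came from small RNA genes of annotated length, of which 90.14% to 90.78% gave whole reads within 0.01 reads. For each gene the smallest length giving whole reads in all samples was then taken. With lengths fitted so, all 19908 genes above 0 gave whole reads within 0.002 reads, which is no separate check. For genes of few reads the fitted length can be too short. The totals ran from 29055819 to 34142988, of which the listed genes held 98.34% to 98.42%. By the study's methods the RPKM was made from normalized counts, so these numbers are not to be read as the reads that were sequenced. How far they differ from raw reads was not tested. Since the deposited unit is RPKM, log2(RPKM + 1) was tested with limma (version 3.58.1, R 4.3.3; lmFit and eBayes, trend on) in the 11411 genes whose mean RPKM reached 1, with no block and with Benjamini-Hochberg adjustment over all of them (threshold 0.05, two-sided). A fold change on this scale understates the change of low genes.

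The members and lists were chosen with earlier results of these data known. Named with values were, in each family, the 4 lowest and 2 highest log2 fold changes past the threshold without overlap, textbook members, the member highest in RPKM and the Sm ring, and from each further list the 2 lowest and the 1 highest past the threshold, with PTBP1, PTBP2 and MYCN; the text says where others were chosen after their values were seen. Alternatives were a pseudocount of 0.1, no filter, a minimum mean RPKM of 5, the replicate block, 2 scalings, eBayes with no trend and each sample left out. A fit with 1 sample left out has fewer degrees of freedom for the error, so a call can change while the estimate hardly does. After seeing the data, a crossed replicate block was added, as was limma voom on the reads behind the RPKM. Gene positions came from GENCODE release 44 lifted to GRCh37, and promoters from RefSeq (GRCh38.p14). Python 3.11.15, numpy 2.4.6, pandas 2.3.3 and matplotlib 3.10.9 were used. Some genes that enter the counts are not reported here by name.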

Additional observations from a re-analysis of the deposited data

How the results depend on the processing

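Of the 38 lower members, 23 were lower in all 12 alternatives other than the crossed block and 38 were below 0 in each of them; by family these were 3 of 6 SRSF, 6 of 11 HNRNP, 8 of 10 SNRP, 1 of 4 SF3, 4 of 5 PRPF and 1 of 2 U2AF members. Of the 28 others, 6 were lower in at least 1 alternative. In each of the 38, both MYCN KD values lay below both Ctrl values. Their sign could thus hardly have changed outside the 2 scalings, so the other alternatives are no check of direction. Where a value changed, the cause was not tested. At equal total RPKM of all samples, 29 members were lower and 1 was higher, with 3 lower SRSF members and 7 lower and 1 higher HNRNP members. Of all tested genes 2122 were lower and 3279 higher in this setting. The median log2 fold change was then -0.25 over all members, -0.33 for SNRP, -0.14 for SF3, -0.051 for PRPF and -0.42 for U2AF. After quantile normalization 31 members were lower and 1 was higher, with 7 lower and 1 higher HNRNP members, beside 2993 lower and 2901 higher of all tested genes. The medians were -0.26 over all members, -0.33 for SNRP, -0.13 for SF3 and -0.38 for U2AF. With no filter on low values the SRSF median was -0.25, and at a minimum mean RPKM of 5, 1868 of all tested genes were higher, fewer genes being tested. With 1 sample left out, the lone sample of a group being assumed to vary like the others, 36 to 37 members were lower, 2 to 4 of them SF3 members, and 0 to 1 members were higher, all of these HNRNP. The medians then ran from -0.42 to -0.27 for SRSF, from -0.43 to -0.38 for SNRP and from -0.16 to -0.093 for PRPF. Same-numbered samples deviated in opposite directions (correlation -0.985 over 11411 genes). The values had been adjusted before deposit, so this correlation cannot show whether the replicate numbers mark pairs. The main fit takes the samples as independent, which these mirrored deviations do not bear out, so its p-values are to be read with caution. With the replicate block, which leaves 1 residual degree of freedom, 29 members were lower, with 1 SF3 and 1 U2AF member, beside 1851 lower and 2077 higher of all tested genes. SRSF11, HNRNPL, HNRNPA0, SNRPB2, SF3B3, SF3B2, SF3B6, PRPF3 and U2AF1 did not pass with this block. A crossed pairing, chosen after seeing the data, gave 60 lower and 6 higher members (SRSF 10 and 1, HNRNP 17 and 3, SF3 8 and 1, PRPF 12 and 1) and 5262 lower and 5910 higher of all genes. It joins the samples that deviated alike and so takes up most of the spread. These counts follow from that choice and are no check on the other fits. With 2 samples per group, small changes such as that of HNRNPA2B1 were not separable from the replicate spread.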

Other observations

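The small nuclear RNAs of the minor spliceosome were barely counted, and were looked at after their values were seen. RNU11 had 6 and 5 reads in Ctrl and 8 and 11 reads in MYCN KD, with an estimated log2 fold change of 0.58 (adjusted p = 0.0252, limma), higher in both MYCN KD samples. After quantile normalization its adjusted p was 0.0527. RNU4ATAC, RNU12 and RNU6ATAC had 1 to 3 reads in each sample and were not tested. At this depth no difference can be read from these genes.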
